A study of Rattus norvegicus with 2 samples.

Results

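The Notch ligands and signal modulators examined here are 8 genes, namely the ligands Dll1, Dll4, Jag1 and Jag2, the fringe glycosyltransferases Lfng, Mfng and Rfng, and the adaptor gene Numb. They were taken by symbol from the 32883 genes listed for each library, and each symbol matched 1 gene identifier. Their transcripts were counted in single epithelial cells of the proximal jejunum from 2 adult male Sprague-Dawley rats, with 1 droplet-based 3′ library per rat. The rats were 6 to 8 weeks old, weighed 180 to 200 g and were fasted overnight, and the labels name no mutation or treatment, so the comparison is between the cell types of 1 tissue. Epithelium was released with EDTA and dispase. Cells with over 5000 unique molecular identifiers (UMIs, 1 per captured transcript) and at most 40% mitochondrial UMIs were sorted into stem cells, cycling cells, secretory progenitors, goblet cells, enteroendocrine cells (EECs), tuft cells, CFTR high expressors (CHEs) and enterocytes. A CHE is a rare villus and crypt cell with high levels of the chloride channel Cftr.

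Notch signalling passes between neighbouring cells. A Delta-like or Jagged ligand on the sending cell binds a Notch receptor on its neighbour, and the pull of ligand endocytosis exposes the receptor to ADAM proteases and then to gamma-secretase. The freed intracellular domain joins RBPJ and Mastermind proteins in the nucleus and switches on targets such as Hes1. In the intestinal crypt Hes1 represses Atoh1, the switch to secretory fate, so a cell that makes ligand and escapes the signal turns secretory while its neighbours stay absorptive. Fringe enzymes add a sugar to Notch that changes which ligands it answers to, and Numb is an endocytic adaptor that restrains Notch in the cell that inherits it.

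Promoters, from 250 bases before to 50 after the transcription start, were found in RefSeq (build GRCr8) for 6 of the 8 genes, and Dll4 and Mfng had no entry. Those of Dll1, Jag1 and Jag2 are printed because these ligands separated the cell types most often below. Capitals mark TGGGAA, the core of the RBPJ site, CAGCTG, an E-box of the kind that Atoh1-type factors bind, and CACGCG, a Hes-type site, on either strand. The 3 motifs do not overlap in these promoters.
Dll1: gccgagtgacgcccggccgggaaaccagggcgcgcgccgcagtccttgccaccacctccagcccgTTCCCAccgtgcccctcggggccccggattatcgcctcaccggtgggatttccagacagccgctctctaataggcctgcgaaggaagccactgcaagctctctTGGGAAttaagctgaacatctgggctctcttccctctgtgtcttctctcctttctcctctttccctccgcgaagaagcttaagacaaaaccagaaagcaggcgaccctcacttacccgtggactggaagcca
Jag1: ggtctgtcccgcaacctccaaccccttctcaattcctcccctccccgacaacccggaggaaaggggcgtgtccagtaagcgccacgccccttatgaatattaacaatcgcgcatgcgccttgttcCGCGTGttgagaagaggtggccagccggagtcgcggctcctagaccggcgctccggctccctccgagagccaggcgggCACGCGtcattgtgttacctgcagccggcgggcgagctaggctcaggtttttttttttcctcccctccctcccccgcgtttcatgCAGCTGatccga
Jag2: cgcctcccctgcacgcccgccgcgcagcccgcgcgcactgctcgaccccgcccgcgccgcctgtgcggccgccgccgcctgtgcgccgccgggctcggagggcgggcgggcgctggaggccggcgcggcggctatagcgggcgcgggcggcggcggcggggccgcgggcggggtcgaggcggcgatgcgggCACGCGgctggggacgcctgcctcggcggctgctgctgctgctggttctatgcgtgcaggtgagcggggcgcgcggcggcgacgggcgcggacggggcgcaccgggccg
The Dll1 promoter (chr1:64993225-64993524, minus strand) held TGGGAA at bases 169 to 174 and, on the other strand, at bases 66 to 71, counted from its 5′ end. The Jag1 promoter (chr3:144894834-144895133, minus strand) held 2 CACGCG matches, at bases 126 to 131 and 204 to 209, and CAGCTG at bases 289 to 294. RefSeq lists 2 start sites for Jag2. The one printed (chr6:137826287-137826586, minus strand) held CACGCG at bases 192 to 197. The other (chr6:137826689-137826988, minus strand), which is not printed, held none of the 3 motifs. The printed stretch lies wholly downstream of that other start site, so for transcripts from there the CACGCG is not in the promoter. Which start site these cells use was not tested. Among 33469 rat promoters of this length, 25.7% held TGGGAA, 15.1% CAGCTG and 8.50% CACGCG, so matches of this kind are common and describe letters only.

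The 2 libraries were unequal. Rat 1 gave 12033 barcodes with 99986348 UMIs and rat 2 gave 8252 with 66469907, of which 5988 and 2230 cells passed the filters on UMIs, genes and mitochondrial share. Clusters of blood-derived cells and cells with few epithelial transcripts were then set aside, which left 5778 and 1585 epithelial cells, and 7063 cells received a class. Only 28 barcode sequences occurred in both libraries. Stem and cycling cells came mainly from rat 1 (162 and 958 cells against 7 and 23 in rat 2), and tuft cells and CHEs mainly from rat 2 (8 and 7 cells in rat 1 against 112 and 68). Thus 1 UMI in the tuft cells of rat 1 already stood for 22.3 CPM, the UMIs of a gene in each 1000000 UMIs of the class, in the CHEs of rat 1 for 14.8 and in the stem cells of rat 2 for 9.90. Endothelial and mesenchymal markers reached at most 1.08 and 0.144 CPM in any class. Leukocyte markers were highest in the tuft cells of rat 1 (735 CPM) and in stem cells (611 and 614 CPM), and haemoglobin transcripts in the CHEs of rat 2 (2218 CPM). Their part in the values below was not tested.

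UMIs were summed per rat and class, and classes were compared over these 16 sums with edgeR's quasi-likelihood test and Benjamini-Hochberg adjustment, at a threshold of 0.05. Fold changes set a class against the mean of the log2 levels of the other classes, each class weighing the same. The 2 rats are the replicates, so each class has n = 2. The classes were rebuilt from clusters of the same cells, and the p-values are therefore not independent of the clustering. Of the 8 genes, Dll1, Jag1, Jag2, Rfng and Numb passed the filter on low counts across classes, while Dll4, Lfng and Mfng did not and are described by their counts.

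**Figure D1:**
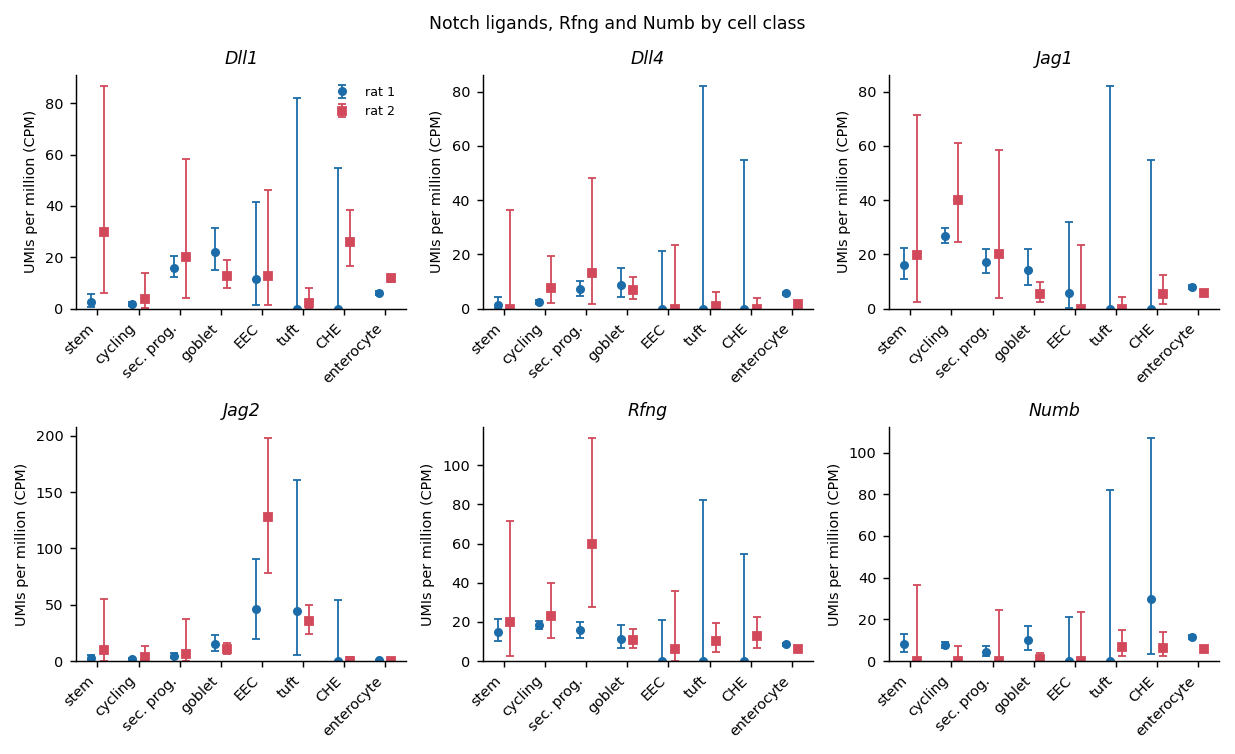
Level of 6 of the genes in each cell class, in CPM (linear axes that differ between panels). Points are the summed cells of rat 1 (circles) and rat 2 (squares), and bars are exact 95% Poisson intervals, which cover counting error only. Jag2 reached 45.8 and 128 CPM in EECs and 0.575 and 0.189 CPM in enterocytes.

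Jag2, a Jagged ligand, was found in EECs, tuft cells and goblet cells and was nearly silent in enterocytes. These 3 classes held 28, 33 and 41 of its 192 UMIs. In EECs it stood at 45.8 CPM in rat 1 (8 UMIs in 7 of 20 cells) and 128 CPM in rat 2 (20 UMIs in 9 of 11 cells). Tuft cells had 44.5 CPM in rat 1, from 2 UMIs in 8 cells, and 35.4 CPM in rat 2, from 31 UMIs in 28 of 112 cells. Goblet cells, the mucus producers, had 15.1 and 10.6 CPM. Both rats thus placed EECs highest, then tuft cells, then goblet cells, and neither of the first 2 steps in this order overlapped between the rats. Cycling cells had 1.72 and 3.80 CPM, secretory progenitors 4.62 and 6.66 CPM and stem cells 2.49 and 9.90 CPM, the last from 1 UMI in rat 2. Enterocytes had 32 UMIs in 4092 cells of rat 1 (0.575 CPM) and 5 UMIs in 1125 cells of rat 2 (0.189 CPM). CHEs had none in either rat. In the 68 CHEs of rat 2 a count of 0 allows up to 3.24 CPM, at least 8.58-fold lower than the mean of the other classes in that rat (27.8 CPM), and in the 7 CHEs of rat 1 it allows 44.4 CPM and no bound.

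In the test, Jag2 was higher in EECs by a log2 fold change of 5.35 ± 0.584 (SE; adjusted p = 3.97e-06), and it kept this call in all 13 alternatives run (log2 fold change from 4.26 to 5.79). Of the 9086 genes tested, 7.22% were called in EECs. Tuft cells were higher by 3.58 ± 0.652 (adjusted p = 0.00104, with 9.53% of genes called), and goblet cells by 2.62 ± 0.632 (adjusted p = 0.0107, with 9.24% called). A class with 0 UMIs in both rats has no defined log level and draws the mean of the others down, so the contrasts were also computed without such classes, a choice made after the data were seen. Without the CHEs the EECs stood 4.26 ± 0.498 higher (adjusted p = 8.73e-06) and the tuft cells 2.46 ± 0.527 (adjusted p = 0.00430), whereas the goblet cells no longer passed (1.48 ± 0.474, adjusted p = 0.0566). By the same measure enterocytes were lower by a log2 fold change of -4.15 ± 0.618 (adjusted p = 5.63e-05) and stem and cycling cells by -2.02 ± 0.531 (adjusted p = 0.00944). With the CHEs in the mean neither had a usable error (log2 fold changes -2.89 and -0.56, adjusted p = 1.00 for both). The tuft call rests on rat 2, since it was lost without the tuft cells of rat 2 (adjusted p = 0.526), and the goblet call was lost without either rat (adjusted p = 0.0876 without rat 1 and 0.0950 without rat 2) and with DESeq2. For CHEs the adjusted p was 0.0572, and 0.0489 with the rat as a block.

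**Figure D2:**
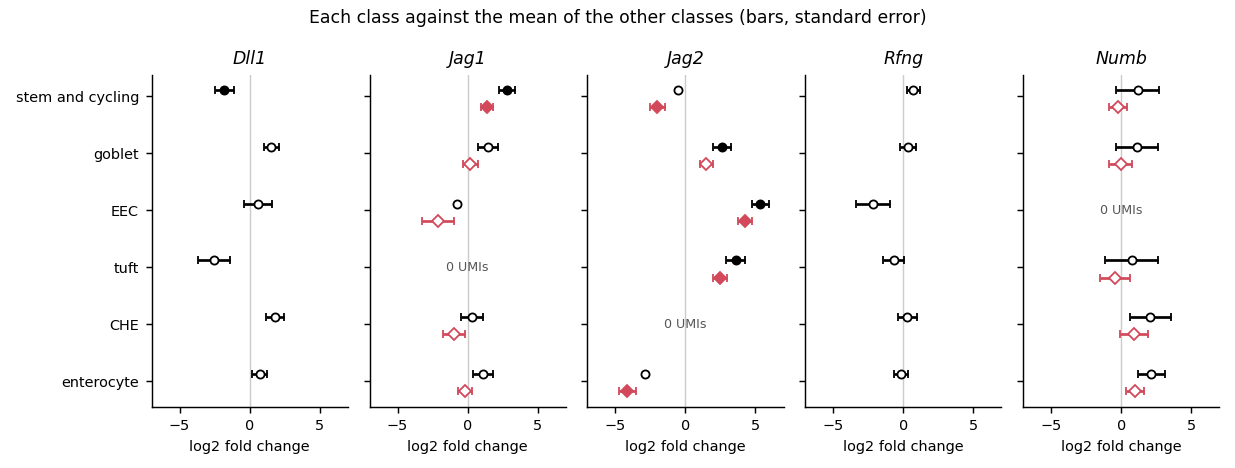
Log2 fold change of each class against the mean of the other classes for the 5 genes that passed the filter. Black circles use all classes and red diamonds leave out classes with 0 UMIs of that gene in both rats; filled symbols have an adjusted p under 0.05, bars are standard errors, no bar is drawn where the error was over 5, and "0 UMIs" marks the classes left out. Jag2 in EECs lies at 5.35 and 4.26, farthest to the right.

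At equal depth EECs, tuft cells and goblet cells again had larger shares of cells with Jag2 than enterocytes, but EECs no longer came before tuft cells in rat 1. With every cell thinned to 5000 UMIs, Jag2 was seen in 20.0% of EECs in rat 1 (exact binomial 95% interval 5.73 to 43.7%) and 54.5% in rat 2 (23.4 to 83.3%). Tuft cells had 25% and 15.2%, goblet cells 8.70% and 6.92%, and enterocytes 0.269% and 0 of 1125 cells. Before thinning, EECs had 35.0% and 81.8% and enterocytes 0.782% and 0.356%, with median depths of 8092 and 12853 UMIs against 12042 and 24751. The share that free RNA alone would give was not measured. Chga, the chromogranin of secretory granules, was in every EEC with or without Jag2 and Neurog3, which marks EEC progenitors, in none, but both are on the marker list that admitted cells to the class. Tph1, the serotonin synthesis enzyme and also on that list, was found in 7 of 9 EECs with Jag2 and 1 of 2 without it in rat 2. In rat 1 it was in 2 of 7 and 2 of 13. Gip, a hormone gene of the same list, went the other way in rat 2, with 2 of 9 and 2 of 2. In rat 1 it was in 3 of 7 and 5 of 13. A link between Jag2 and any of these genes was not tested.

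The EECs and tuft cells also held markers of other classes. The enterocyte list summed to 27372 and 34470 CPM in tuft cells, with 8 and 9 of its 9 genes seen, against 95183 and 80912 CPM in enterocytes. Most of this was Fabp1, a fatty acid binding protein gene (25501 and 32628 CPM), while Alpi, the brush-border alkaline phosphatase gene, stood at 0 in the tuft cells of rat 1 and at 79.8 CPM in rat 2. The goblet list summed to 7001 and 14592 CPM in EECs, against 206504 and 324714 CPM in goblet cells, and most of it was Tff3, a trefoil peptide gene (4285 and 12725 CPM). Enterocytes and goblet cells themselves had less Jag2 than the EECs and tuft cells, and the part of these transcripts in the Jag2 and Jag1 values of both classes was not tested. No class was named for Paneth cells, the antimicrobial cells of the crypt. The Paneth list summed to 7327 and 2461 CPM in goblet cells and to 5290 and 5258 CPM in secretory progenitors. The part of Paneth cells in the Dll1 and Dll4 values of these 2 classes, given below, was not tested.

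**Figure D3:**
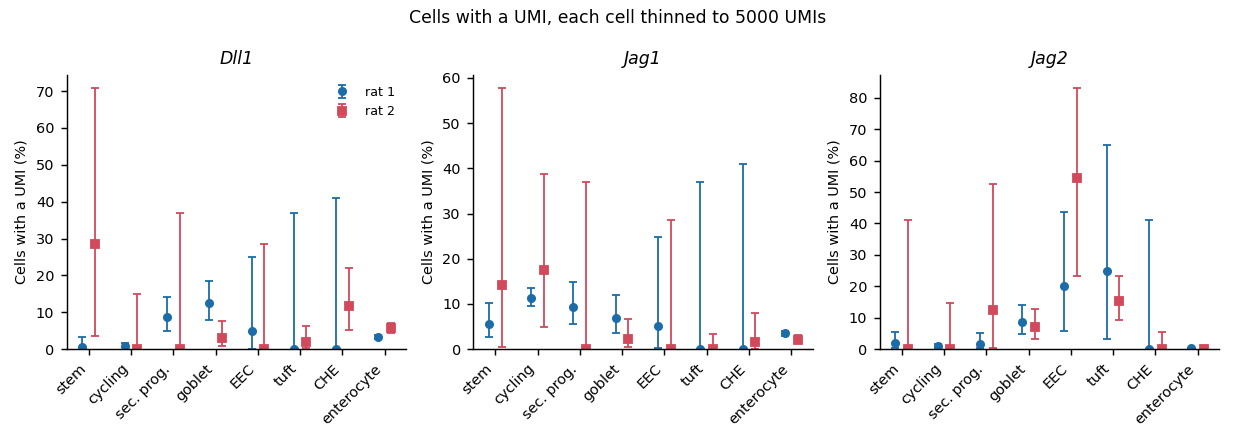
Percentage of cells with at least 1 UMI of Dll1, Jag1 or Jag2 after each cell was thinned to 5000 UMIs, by class and rat (linear axes). Bars are exact binomial 95% intervals and are wide in classes of 7 to 23 cells. Jag1 was seen in 11.4% and 17.4% of cycling cells, and Jag2 in 20.0% and 54.5% of EECs.

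Dll1, a Delta-like ligand known from secretory precursors of the crypt, was present in goblet cells and secretory progenitors, and also in enterocytes and in the CHEs of 1 rat. Goblet cells had 22.2 CPM in rat 1 (31 UMIs) and 12.8 CPM in rat 2 (24 UMIs). Secretory progenitors, which carry goblet and proliferation transcripts together, had 15.9 CPM (62 UMIs) and 20.0 CPM (3 UMIs). Enterocytes had 6.11 and 11.9 CPM, with 340 and 314 of the 841 Dll1 UMIs. In CHEs, rat 2 had 24 UMIs in 19 of 68 cells (25.9 CPM), while rat 1 had none in 7 cells, which allows up to 44.4 CPM. Cycling cells were low in both rats (1.79 and 3.80 CPM), and tuft cells had 0 and 2 UMIs (2.28 CPM in rat 2). The stem cells disagreed, with 2.49 CPM in 162 cells of rat 1 and 29.7 CPM in 7 cells of rat 2. Those 29.7 CPM are 3 UMIs, and the few stem and cycling cells of rat 2 also held Atoh1 (39.6 and 76.1 CPM, against 5.98 and 2.05 CPM in rat 1). When the 8 classes were ordered by level, only the step from enterocytes down to cycling cells was free of overlap between the rats.

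Dll1 was lower in stem and cycling cells by a log2 fold change of -1.80 ± 0.659 (adjusted p = 0.0423, where 33.9% of all genes were called). This call was lost without the stem and cycling cells of rat 1 (-0.65, adjusted p = 0.744), and with DESeq2, with a stricter mitochondrial limit, without the limit on genes per cell and without called doublets. In goblet cells Dll1 stood 1.56 ± 0.566 higher but missed the threshold (adjusted p = 0.105). With the rat as a block it passed (1.65 ± 0.468, adjusted p = 0.0122, with 14.5% of genes called). It also passed without the filter on low counts (0.0107), with merged rats (0.00930) and without called doublets (0.0462). The goblet difference came mainly from rat 1, with log2 fold changes of 3.22 in rat 1 and 0.70 in rat 2. With cells thinned to equal depth, Dll1 was seen in 12.4% of goblet cells in rat 1 and 3.08% in rat 2. Enterocytes then had 3.27% and 5.6%, so in rat 2 the goblet share was not above theirs. Secretory progenitors stood 2.17 ± 0.791 above stem and cycling cells (adjusted p = 0.450, with 1.18% called), and passed with the block (2.29 ± 0.606, adjusted p = 0.0283, with 2.51% called) and with merged rats (0.0405). The CHE difference was 1.80 ± 0.659 (adjusted p = 0.0806, with 12.6% called). With the block the adjusted p was 0.0563 (19.1% called), and the difference passed without the filter on low counts (0.0181) and when the rats were merged without integration (0.0281). The difference came from rat 2, since the adjusted p was 0.0230 without the CHEs of rat 1 and no Dll1 was left without those of rat 2. Differences in EECs (0.61, adjusted p = 0.834), tuft cells (-2.55, adjusted p = 0.201) and enterocytes (0.72, adjusted p = 0.391) did not pass.

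The goblet class joined 2 clusters that differed in Dll1. The cluster led by Spink4, Clca1 and Agr2, transcripts of secretory granules and mucin folding, held 112 cells of rat 1 and 32 of rat 2, with 25.9 and 31.1 CPM of Dll1. The cluster led by Zg16, a lectin-like protein of mature granules, held 49 and 98 cells, with 12.8 and 4.62 CPM. Dll4 had the same order, with 11 and 15.5 CPM in the first cluster and 2.55 and 3.08 CPM in the second. For Jag2 the rats went opposite ways (14.0 and 19.0 CPM against 17.9 and 6.93 CPM). Rat 2 had most of its goblet cells in the Zg16 cluster and rat 1 in the other, so the lower Dll1 level of the whole goblet class in rat 2 moved with this mix. These values come from clusters of the same cells and were not tested.

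Jag1, the second Jagged ligand, was highest in cycling cells and had no UMI in tuft cells. Cycling cells had 26.9 CPM in rat 1 (406 UMIs) and 39.9 CPM in rat 2 (21 UMIs). Stem cells had 15.9 and 19.8 CPM, and secretory progenitors 17.2 and 20.0 CPM. Goblet cells followed with 14.3 and 5.32 CPM and enterocytes with 7.94 and 5.81 CPM. Cycling cells lay above every other class in both rats. EECs had 1 and 0 UMIs, and CHEs 0 and 5 UMIs (5.40 CPM in rat 2). Among 112 tuft cells of rat 2 a count of 0 allows up to 3.42 CPM, at least 4.02-fold lower than the mean of the other classes in that rat (13.8 CPM). The 8 tuft cells of rat 1 were too few to set a bound.

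Jag1 was higher in stem and cycling cells by a log2 fold change of 2.81 ± 0.592 (adjusted p = 0.00171), and by 1.40 ± 0.449 (adjusted p = 0.0240) when the tuft cells were left out of the mean. The call was lost without the stem and cycling cells of rat 1 (adjusted p = 0.151, log2 fold change 2.66). Tuft cells were called lower (adjusted p = 0.0161), and this call was lost without those of rat 2 (adjusted p = 0.782), with DESeq2 and when the rats were merged without integration. No other class was called for Jag1. With cells thinned to 5000 UMIs, Jag1 was seen in 11.4% and 17.4% of cycling cells, 5.56% and 14.3% of stem cells, 3.49% and 2.04% of enterocytes and none of 8 and 112 tuft cells. In rat 2, 0 of 112 has an upper 95% limit of 3.24%.

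Dll4, the second Delta-like ligand, was sparser, with 394 UMIs in rat 1 and 67 in rat 2. Secretory progenitors had 7.19 CPM (28 UMIs) and 13.3 CPM (2 UMIs), and goblet cells 8.61 CPM (12 UMIs) and 6.92 CPM (13 UMIs). Enterocytes had 5.68 and 1.77 CPM, which do not lie close. Cycling cells had 2.32 and 7.61 CPM, the latter from 4 UMIs, and stem cells 1.49 CPM and 0. EECs and CHEs had no Dll4 in either rat, and tuft cells 1 UMI in all. The zero in the CHEs of rat 2 allows up to 3.24 CPM, which is above the 1.77 CPM of enterocytes in the same rat, so the zero does not set CHEs below them.

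Of the fringe genes, only Rfng was detected in most classes of both rats. It had 14.9 and 19.8 CPM in stem cells, 18.4 and 22.8 CPM in cycling cells and 15.7 and 60.0 CPM in secretory progenitors, the last from 9 UMIs in 7 of 8 cells. Goblet cells had 11.5 and 10.6 CPM and enterocytes 8.61 and 6.08 CPM. CHEs had 0 and 13.0 CPM, tuft cells 0 and 10.3 CPM and EECs 0 and 6.41 CPM, the last from 1 UMI. For the class sums, the order from stem to goblet cells to enterocytes held in both rats without overlap. The stem value of rat 2 is 2 UMIs in 1 of 7 cells, with an exact Poisson interval of 2.40 to 71.5 CPM. Within the goblet class, the cluster led by Spink4 had 15.0 and 31.1 CPM. The cluster led by Zg16 had 2.55 and 1.54 CPM, below enterocytes in both rats, so the order does not hold for each goblet cluster. No contrast was called (stem and cycling cells 0.70 ± 0.473 higher, adjusted p = 0.278, and EECs -2.18 ± 1.23, adjusted p = 0.360). Lfng had 9 UMIs in all classes together, each of them in rat 1, of which 3 were in cycling cells and 2 each in secretory progenitors and goblet cells. Mfng had 2 UMIs, 1 in an EEC and 1 in a CHE of rat 2. Neither gene allows a comparison of classes.

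Numb had 811 UMIs in rat 1 and 164 in rat 2. Enterocytes had 11.6 and 5.66 CPM (644 and 150 UMIs). Stem, cycling and secretory progenitor cells had 7.97, 7.82 and 4.37 CPM in rat 1 and no UMI in rat 2, where the 23 cycling cells allow up to 5.71 CPM. Goblet cells had 10.0 and 1.06 CPM, CHEs 29.6 CPM from 2 UMIs and 6.49 CPM from 6, tuft cells 0 and 6.84 CPM, and EECs none. All neighbouring classes overlapped between the rats when ordered by level. Enterocytes stood 2.13 ± 0.979 higher on the log2 scale (adjusted p = 0.131, with 24.5% of genes called). With the rat as a block they passed (2.27 ± 0.706, adjusted p = 0.0109, with 36.8% called), as they did without the filter on low counts (0.0138) and with merged rats (0.0396), but without the EECs, which had 0 UMIs, the difference was 0.98 ± 0.629 (adjusted p = 0.290).

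Enterocytes mature as they climb the villus, and the ligands were followed along that path. The enterocytes of each rat were divided into tertiles by their share of UMIs from 8 late-villus genes such as Apoa4, the apolipoprotein of chylomicrons. The tertiles are ranges and not types, and 565 of 4092 cells in rat 1 and 148 of 1125 in rat 2 lay within 10% of a boundary. In early, middle and late cells Jag1 was 18.3, 2.87 and 1.33 CPM in rat 1 and 9.72, 3.64 and 1.72 CPM in rat 2. Dll1 was 1.65, 7.68 and 9.67 CPM in rat 1 and 8.92, 15.3 and 12.0 CPM in rat 2. Early cells thus had most Jag1 and least Dll1 in both rats. Dll4 was 1.15, 5.12 and 11.8 CPM in rat 1, whereas in rat 2 it was 0.972, 2.78 and 1.72 CPM, from 11, 26 and 10 UMIs. Numb was 10.5, 11.5 and 12.9 CPM in rat 1 and 3.97, 6.52 and 7.56 CPM in rat 2. Rfng was 12.4, 7.16 and 5.68 CPM in rat 1 and 8.66, 6.31 and 0.687 CPM in rat 2. In each rat the late cells thus had more Dll1, Dll4 and Numb and less Jag1 and Rfng than the early ones.

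**Figure D4:**
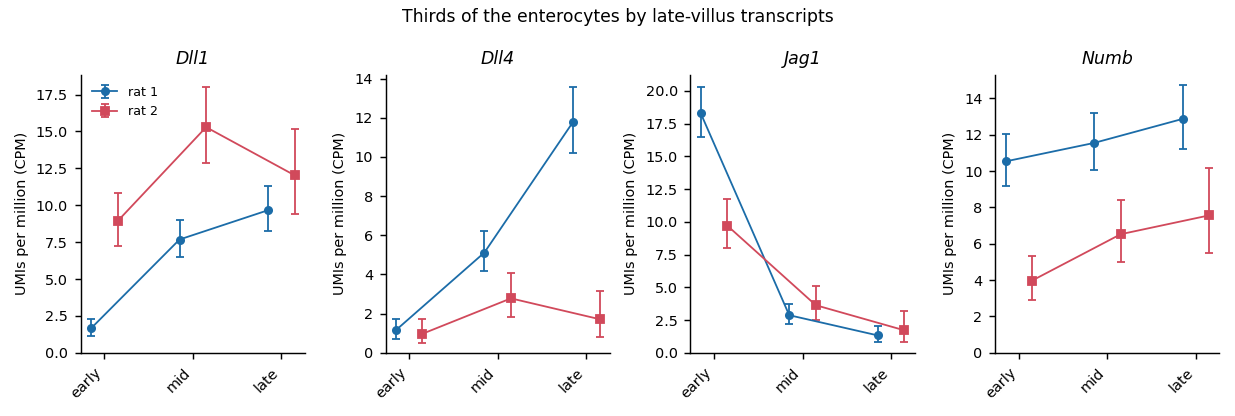
Levels of Dll1, Dll4, Jag1 and Numb in the early, middle and late tertile of the enterocytes of each rat, in CPM on linear axes, with exact 95% Poisson intervals. Lines join the tertiles of a rat. Jag1 is 18.3 CPM in early and 1.33 CPM in late cells of rat 1, and 9.72 and 1.72 CPM in rat 2, while Dll1 is higher in late than in early cells of both.

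Over the 6 sums of these tertiles edgeR called none of 10013 genes late against early (0%), although 2271 had an unadjusted p under 0.05 and DESeq2 called 1339. The differences of the ligands were therefore not called without the block: the log2 fold change was -2.39 ± 0.539 for Jag1 (adjusted p = 0.163), 3.32 ± 0.822 for Dll4 (adjusted p = 0.166), 1.77 ± 0.938 for Dll1 (adjusted p = 0.290) and 1.29 ± 0.502 for Numb (adjusted p = 0.208). The tertiles of a rat share an animal and a library, and with the rat as a block 29.4% of genes were called. Of the 5 genes tested, Jag1 was then lower (-2.46 ± 0.482, adjusted p = 0.0205), and Dll4 (3.18 ± 0.637, adjusted p = 0.0216), Dll1 (2.19 ± 0.519, adjusted p = 0.0324) and Numb (1.35 ± 0.315, adjusted p = 0.0315) were higher. DESeq2 called Jag1 (adjusted p = 0.00911) and Dll4 (0.00444) without the block. Rfng did not pass (-1.09 ± 0.596, adjusted p = 0.216). Jag2 had too few UMIs in enterocytes to be tested. These fold changes use size factors (TMM) that the CPM above leave out, and they lie higher than the CPM alone would give. For Numb the log2 fold change was 0.97 in rat 1 and 1.77 in rat 2. Its CPM rose only from 10.5 to 12.9 in rat 1 and from 3.97 to 7.56 in rat 2. How far the calls rest on this scaling was not tested.

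The rest of the pathway was read from a list of 53 genes, of which 32 passed the filter across classes. Their contrasts keep classes with 0 UMIs in the mean, which draws it down, and were not computed without them. Such classes include tuft cells for Hes1, CHEs for Aph1b and Atoh1, and stem cells for Neurl1. How far this enlarged the fold changes below was not tested. Notch2 was called higher in CHEs (log2 fold change 9.14 ± 0.547, adjusted p = 6.03e-09), with 133 CPM in rat 1 (9 UMIs) and 227 CPM in rat 2 (210 UMIs) and at most 5.48 CPM in any other class. Nrarp, a target that feeds back on Notch, had 252 and 549 CPM there (6.39 ± 0.640, adjusted p = 1.47e-06), and Hes1 had 148 and 103 CPM (2.98 ± 0.605, adjusted p = 0.00280). This Hes1 level was not particular to CHEs, since stem cells had 126 and 208 CPM and cycling cells 85.3 and 98.9 CPM. Of the ligands, the CHEs of rat 2 held 24 UMIs of Dll1 and 5 of Jag1 and none of Jag2 or Dll4, and those of rat 1 held none. Notch1 was also called in CHEs, but turned negative without the CHEs of rat 2 (-0.38), where the 7 remaining cells of rat 1 had 1 Notch1 UMI. Hes1, which the receptor switches on, had no UMI in the tuft cells of either rat and was called lower there (adjusted p = 0.000755), and lost that call without rat 2 (adjusted p = 0.526). Without the CHEs of rat 2 the calls of Notch2 (adjusted p = 0.000803) and Nrarp (adjusted p = 0.0340) held, and those of Hes1, Hes6 and Nedd4 were lost (adjusted p = 0.403, 0.689 and 0.640). In CHEs 4 of 32 genes were higher and 2 lower (Nedd4 and Hes6), where 12.6% of all genes were called, with a median log2 fold change of 0.42 beside -0.24 over all genes.

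**Figure D5:**
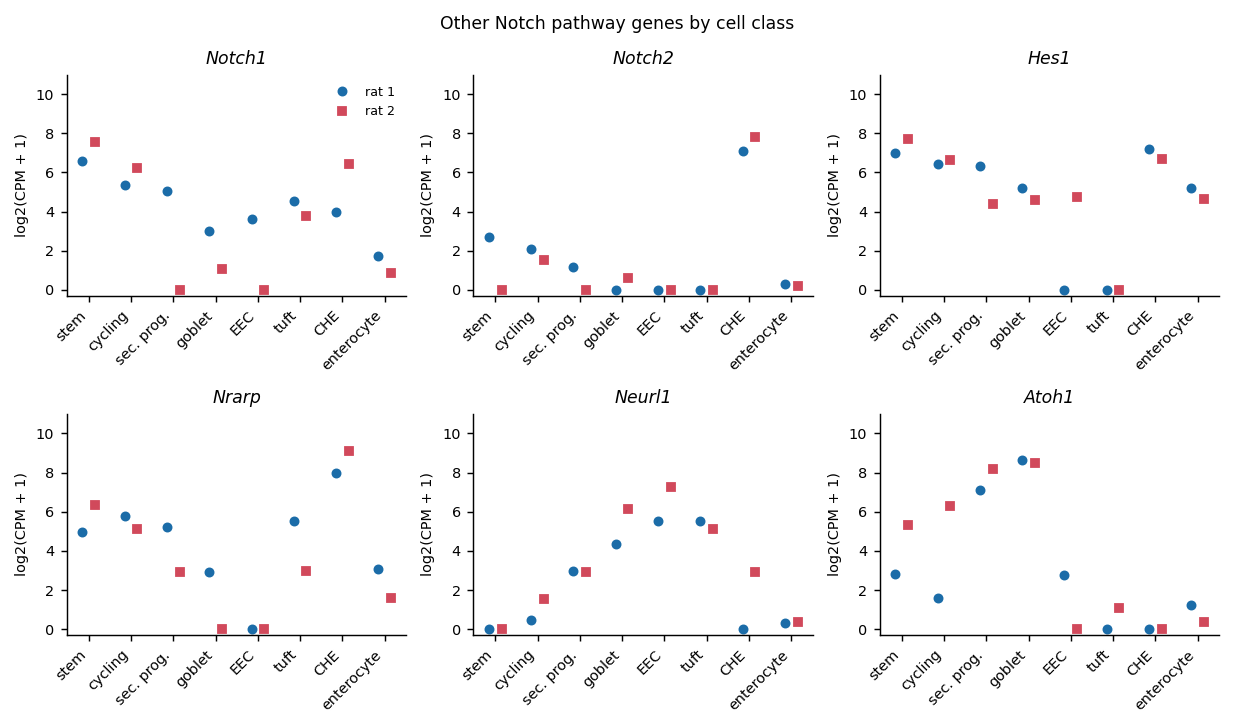
Levels of the receptors Notch1 and Notch2, the targets Hes1 and Nrarp, the ligand-endocytosis gene Neurl1 and the secretory switch Atoh1 in each class, as log2(CPM + 1), with circles for rat 1 and squares for rat 2. A point at 0 is a sum without a UMI. Notch2 is high in CHEs (133 and 227 CPM), Neurl1 in EECs (45.8 and 154 CPM) and Atoh1 in goblet cells (392 and 359 CPM).

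Neurl1, a ubiquitin ligase that drives ligand endocytosis, was called higher in EECs, tuft cells and goblet cells, where Jag2 was also called. It had 45.8 and 154 CPM in EECs (log2 fold change 5.38 ± 0.630, adjusted p = 8.62e-06), 44.5 and 34.2 CPM in tuft cells (3.36 ± 0.714, adjusted p = 0.00416) and 19.4 and 69.2 CPM in goblet cells (4.59 ± 0.535, adjusted p = 9.39e-06). The tuft call was lost without rat 2 (adjusted p = 0.608). In enterocytes it had 0.234 and 0.302 CPM, and in stem cells none. Goblet cells had Atoh1 as their only other call (7.20 ± 0.725, adjusted p = 1.74e-06), with 392 and 359 CPM, while Atoh1 had 1 UMI or none in the EECs, tuft cells and CHEs of each rat. EECs had Aph1b, a gamma-secretase subunit, as their other call (4.12 ± 0.804, adjusted p = 0.00240, and 0.0598 without rat 1). Tuft cells had Epn2, an epsin that works in ligand endocytosis (2.49 ± 0.658, adjusted p = 0.0188, and 0.673 without rat 2). Called were 2 of the 32 genes in goblet cells, 2 in EECs and 3 in tuft cells, where 9.24%, 7.22% and 9.53% of all genes were called. The medians of the 32 genes were 0.31 in goblet cells (0.11 over all genes), -0.26 in EECs (-0.16) and 0.24 in tuft cells (-0.15).

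Stem and cycling cells, where Jag1 was called higher, had 6 of 32 genes higher and 2 lower, where 33.9% of all genes were called, so the pathway genes were called no more often than genes in general. Higher were Hes1 (3.17 ± 0.523, adjusted p = 0.000308), Notch1 (2.85 ± 0.492, adjusted p = 0.000373), Nrarp, Psen2, Nedd4 and Hes6, the last a Hes protein that opposes Hes1. Notch1 had 94.2 and 188 CPM in stem cells and 39.8 and 74.2 CPM in cycling cells. Lower were Neurl1 and Dnm2, the dynamin of endocytosis. Without the stem and cycling cells of rat 1, the calls of Nrarp, Psen2, Nedd4, Hes6, Neurl1 and Dnm2 were lost (adjusted p from 0.0549 to 0.250), and without those of rat 2 the calls of Nrarp (0.0792) and Dnm2 (0.0668). The median was 0.23 beside 0.21 over all genes. Enterocytes had Epn1 (1.91) and Ncstn (1.25) higher and Notch1 (-3.35) and Nedd4 (-2.53) lower, where 24.5% of all genes were called, with a median of -0.25 beside 0.10. All 4 calls were lost without the enterocytes of rat 2 (adjusted p from 0.0586 to 0.380). Between secretory progenitors and stem and cycling cells Neurl1 alone of the 32 was called (5.85 ± 1.37, adjusted p = 0.0446, with 1.18% of all genes called, and 0.626 without rat 1 and 0.112 without rat 2), and with the block Atoh1 as well (3.55 ± 0.677, adjusted p = 0.000895). In late against early enterocytes none of 34 genes was called, and 5 higher and 3 lower with the block, where 29.4% of all genes were called, so this count too lies below the share over all genes. Among the lower was Nrarp (-2.97 ± 0.588, adjusted p = 0.0210).

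The genes whose levels most resembled each member were ranked by Pearson's r of log2 CPM over the 16 class sums, among 9085 genes. The sums share libraries, cell numbers and depth, so r is a description. Dll1 was nearest to Disp1 (r = 0.920), Tmem63a (0.907) and Maml1 (0.876), the last a Mastermind coactivator of Notch. Jag2 was nearest to Disp2 (0.954), Arl3 (0.933) and Maged1 (0.900), and Jag1 to Dock1 (0.975), Sars2 (0.942) and Tbp (0.940). Rfng was nearest to Cactin (0.984), Tada3 (0.973) and Zfp629 (0.968), and Numb to Tex261 (0.882), LOC103690068 (0.864) and Usp15 (0.838).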

How the data were processed

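Single cells of the proximal jejunum were measured in 1 library for each of 2 rats. The authors deposited raw UMI counts per gene and barcode, made with Cell Ranger against Rnor6 (rn6). By the file headers, version 3.1.0 made the counts of rat 1 and version 5.0.1 those of rat 2, and version and rat cannot be told apart. All values here were computed from those deposited counts, and 0 columns of values were left unused. The 8 members and all gene lists were chosen with earlier results of these data known.

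Cells with over 5000 UMIs, over 200 and under 5800 genes and at most 40% mitochondrial UMIs were integrated in Seurat 5.3.0 (2000 variable genes, 20 components, resolution 0.3, later 0.5). Clusters with Ptprc or haemoglobin transcripts were removed, as were cells with at most 10 UMIs of Epcam, Krt8, Krt18, Krt19 and Krt20. Classes were named from fixed marker lists, with gates on marker UMIs per cell that were set after the clusters were seen, which left 3.44% and 6.37% of epithelial cells unnamed. Class names may therefore differ from the study's own. Doublets were not removed in the main analysis, and Scrublet in scanpy 1.11.5 called 1.94% of cells in rat 1 and 0.224% in rat 2, too few in rat 2 to count as a working call.

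Counts were summed per rat and class, for sums of at least 5 cells, and tested in R 4.3.3 with edgeR 4.0.16 (TMM, filterByExpr, glmQLFit, glmQLFTest, Benjamini-Hochberg over all genes tested, threshold 0.05), with DESeq2 1.42.0 as an alternative. The test was also tried on simulated counts with known changes. Those were drawn independently for each sum, with no effect of the rat, so the trial does not cover the pairing of the sums. CPM are UMIs for each 1000000 UMIs in a sum, without the TMM factors that scale the fold changes. Errors of a level are exact Poisson intervals at 95%, and the limit of a count of 0 is 3 counts, both for counting error only. The 3′ tags do not allow levels of different genes to be compared. The sums of a rat share an animal, so the rat number pairs them. Their deviations from the class means correlated in 28 pairs of classes with a median r of 0.146 (0.0350 to 0.601), and in 3 pairs of enterocyte tertiles with a median of 0.700 (0.395 to 0.748).

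The text names all 8 members, the other Notch genes past the threshold (up to 10 a contrast) and the 3 genes nearest to each member by Pearson's r. Alternatives were cell filters, integration, resolution, doublets, size factors, the filter on low counts, mitochondrial genes, the block, leaving out a rat and, added after the data were seen, leaving out classes with 0 UMIs. The last of these was run for members only. Of the 53 pathway genes, 52 had a row in the files, and 1 further gene of the list is not reported here. Promoters came from RefSeq's GRCr8 tables and are not in the coordinates of the authors' build.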

Additional observations from a re-analysis of the deposited data

Results flagged for a closer look

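Cells set aside as non-epithelial (210 in rat 1 and 645 in rat 2) lie outside the comparisons above, and 6 of the 8 genes had more there in both rats than the 1.17 and 0.537 CPM that a count of 0 allows. Mfng, nearly absent from the epithelium, stood at 1.95 and 11.3 CPM. All 5 of its UMIs in rat 1 and 62 of 63 in rat 2 fell in cells that also held Ptprc, the leukocyte antigen Cd45 (108 and 388 cells). In rat 2 this is 17.2 CPM in cells with Ptprc and 0.504 CPM in the others. The split in rat 2 was not particular to Mfng. Rfng had 20.3 and 0.504 CPM there, Dll1 6.11 and 0.504 CPM and Jag1 5.27 and 0.504 CPM. In rat 1 Rfng had 7.64 CPM in cells with Ptprc and 10.6 CPM in the others, Dll1 4.17 and 4.43 CPM and Jag1 11.8 and 17.7 CPM. Over all cells set aside, Rfng had 8.95 and 13.2 CPM, Jag1 14.4 and 3.58 CPM, and Numb 7.01 and 0.716 CPM. Dll1 had 4.28 and 4.12 CPM and Jag2 1.95 and 1.25 CPM.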

How the results depend on the processing

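The number of called genes moved by more than 1.5 times in several settings. With the replicate block it was 1738 instead of 1141 in CHEs, 3346 instead of 2222 in enterocytes, 994 instead of 656 in EECs, 1322 instead of 840 in goblet cells, 1439 instead of 866 in tuft cells, 228 instead of 107 in secretory progenitors and 2945 instead of 0 in late against early enterocytes. Without the filter on low counts it was 1276 in EECs, 1505 in goblet cells, 1403 in tuft cells, 229 in secretory progenitors and 1659 in late enterocytes. DESeq2 called 1339 genes in late enterocytes. At most 20% mitochondrial UMIs, which left no stem class, gave 57 in secretory progenitors and 184 in late enterocytes. No limit on genes per cell, which left no stem class and no EECs, so that the EEC contrast could not be run there, gave 21 in secretory progenitors and 1941 instead of 3077 in stem and cycling cells. Merging without integration gave 187 in secretory progenitors. Leaving out 1 rat gave 87 to 1359 genes in CHEs, 1175 to 2006 in enterocytes, 271 to 405 in EECs, 310 to 826 in goblet cells, 44 to 92 in secretory progenitors, 381 to 2160 in stem and cycling cells and 90 to 887 in tuft cells, with the lower number without rat 2 except in stem and cycling cells.

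Some log2 fold changes of the members turned sign, none of which was called with all sums. Leaving out a rat, where the lone sum is assumed to vary like the other classes, gave -8.35 to 2.38 for Dll1, -7.75 to 0.71 for Jag1 and -8.98 to 0.73 for Rfng in CHEs, -7.91 to 0.33 for Jag1 in EECs, -0.80 to 0.21 for Jag2 and -6.76 to 1.59 for Numb in stem and cycling cells, -0.999 to 1.98 for Numb in goblet and -7.22 to 0.99 in tuft cells, and -0.17 to 1.54 for Rfng in secretory progenitors. Values beyond -6 are those of a remaining rat with 0 UMIs and are no bound. Of the called pathway genes, Notch1 turned in the same way in CHEs (-0.38 to 3.19). Other turns were Jag1 in CHEs with DESeq2 (-0.40) and merged rats (-0.58), Jag2 in stem and cycling cells without the gene limit (0.36), and Numb without it in goblet (-0.12), stem and cycling (-0.59) and tuft cells (-0.27) and with DESeq2 in stem and cycling cells (-0.23). Rfng turned in enterocytes without the filter (0.00511), with the 20% limit (1.23) and merged (0.0654), and in tuft cells with the 20% limit (0.48). Leaving out classes with 0 UMIs turned Jag1 in CHEs (-0.96) and enterocytes (-0.16) and Numb in goblet (-0.0502), stem and cycling (-0.21) and tuft cells (-0.44). The cause of the turns was not tested. RLE size factors moved the median of all genes by -0.22 in enterocytes, 0.27 in EECs, -0.12 in stem and cycling cells and 0.13 in tuft cells, and leaving out mitochondrial genes moved it by 0.18 in CHEs and -0.14 in stem and cycling cells. Of 526 values of members under an alternative, 459 kept direction and call. The replicate block changed the calls of Dll1, Dll4, Jag1, Jag2 and Numb given with the results and no other call of a member. Depth limits most the tuft cells and CHEs of rat 1 and the stem cells of rat 2.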

Other observations

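Epithelial cells that received no class name, 199 in rat 1 and 101 in rat 2, carried the ligands too. Dll1 had 8.90 and 10.98 CPM in them, Dll4 6.55 and 4.99 CPM, Jag1 17.3 and 8.49 CPM and Jag2 4.19 and 6.99 CPM. Barcodes outside the cell filter, 6045 in rat 1 and 6022 in rat 2, held 49 and 165 UMIs of Mfng (3.21 and 5.94 CPM) and 9 and 6 UMIs of Lfng. In these barcodes Jag2 had 3.01 and 2.16 CPM and Dll1 7.002 and 7.74 CPM.

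One enterocyte cluster had more Jag1 than the others. It held 547 and 33 cells, with 29.7 and 27.1 CPM of Jag1, near the level of cycling cells, and had 2.00 and 1.08 CPM of Dll1. A cluster of 307 and 172 enterocytes had 1.13 and 2.09 CPM of Jag1 and 10.2 and 15.0 CPM of Dll1, and its Dll4 was 17.0 CPM in rat 1 and 3.49 CPM in rat 2. Another, of 146 and 201 cells, had still less Jag1 (0 and 1.39 CPM), with 17.3 and 6.60 CPM of Dll1 and 15.3 and 1.04 CPM of Dll4. These clusters were picked after their values were seen, and nothing was tested on them.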
